A study of Mus musculus with 15 samples.

Results

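Genes that pattern the dorsal-ventral axis of the eye were followed through the differentiation of mouse optic tissue in culture. The 8 genes were chosen by name: the ventral homeobox and paired-box genes Vax1, Vax2 and Pax2, the dorsal T-box genes Tbx2, Tbx3 and Tbx5, and the orphan nuclear receptor genes Nr2f1 and Nr2f2, also called COUP-TFI and COUP-TFII. Each had 1 entry among the 23244 of the series, and 7 of the 8 passed the filter on low values that left 13845 entries for testing. Vax1 did not pass.

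RNA was sequenced from 15 libraries in 5 groups of 3 biological replicates, all made from a single mouse embryonic stem cell line that carries GFP in the eye field gene Rx (Rx::GFP). SFEBq culture, in which dissociated stem cells reaggregate in low-adhesion wells, gave aggregates with an Rx::GFP+ outer layer. The first group is this layer at Day 10 (Day 10 Rx::GFP+), and the other 4 are explants of it that had been stimulated until Day 12 or Day 15. Explants labelled +Wnt received CHIR99201, an inhibitor of GSK3 that activates β-catenin signalling, at 3 μM for the first 24 h and at 1 μM afterwards. Explants labelled +Fgf received 5 ng/ml bFgf together with 10% FBS. Serum was listed for the +Fgf medium only, and no group was cultured past Day 10 without a stimulus, so the effects of bFgf, serum and time cannot be told apart. The +Fgf condition is used to obtain neural retina and the +Wnt condition to obtain pigment epithelium.

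In the vertebrate eye, BMP signals from the dorsal side switch on Tbx2, Tbx3 and Tbx5, while Hedgehog signals from the ventral midline support Vax1, Vax2 and Pax2. Vax and Pax2 proteins specify the optic stalk and the ventral retina, and Pax2 is needed for closure of the optic fissure. The T-box proteins act mostly as repressors (Tbx2 and Tbx3) or activators (Tbx5) of transcription in the dorsal optic cup. Nr2f1 and Nr2f2 are nuclear receptors that act together in the early optic vesicle, in the stalk and in the pigment epithelium, and are also expressed in many other tissues, among them the cerebral cortex and mesenchyme.

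The genes lie on 6 chromosomes of the mouse assembly mm10, and the positions given are the gene extents in the GENCODE annotation. Vax1 and Pax2 both lie on chromosome 19, Vax1 (XLOC_010582 in the files) from 59166187 to 59170056 on the minus strand and Pax2 (XLOC_010148) from 44756045 to 44837871 on the plus strand. Vax2 (XLOC_016686) lies on chromosome 6 from 83711264 to 83738313 on the plus strand. Tbx2 (XLOC_002887) lies on chromosome 11 from 85832551 to 85841948 on the plus strand. Tbx3 (XLOC_015494) and Tbx5 (XLOC_015495) are neighbours on the plus strand of chromosome 5, from 119670669 to 119684724 and from 119832668 to 119885219, with 148 kb between them. Nr2f1 (XLOC_005638) lies on chromosome 13 from 78188973 to 78199757 and Nr2f2 (XLOC_019171) on chromosome 7 from 70351944 to 70366735, both on the minus strand. All 8 are protein-coding genes. In the GENCODE annotation of the same assembly, exons of Nr2f1, Nr2f2 and Tbx3 overlap exons of genes on the opposite strand, over 123 bases (A830082K12Rik), 643 bases (B130024G19Rik) and 115 bases (Tbx3os1). The library kit marks strand, but the strand setting of the counting was not stated, so reads in these stretches cannot be assigned to either strand.

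Promoter sequence was at hand for Vax1, Pax2, Nr2f1 and Nr2f2 (RefSeq, GRCm38.p6). It was searched on both strands for CTTTGAT, the sequence bound by the TCF/LEF partners of β-catenin, because the +Wnt condition activates that pathway. AGGTGTGA, a T-box sequence, and GACCACCCA, the sequence of the Hedgehog effectors of the GLI family, were searched as well. The 250 bases before the RefSeq start are shown for Nr2f2 and Vax1, which held a match, and for Pax2, which held none and was among the genes with the largest difference between the stimulations. They run 5′ to 3′ on the strand of the gene, with matches in capitals.
Nr2f2, chr7:70366747-70366996, minus strand: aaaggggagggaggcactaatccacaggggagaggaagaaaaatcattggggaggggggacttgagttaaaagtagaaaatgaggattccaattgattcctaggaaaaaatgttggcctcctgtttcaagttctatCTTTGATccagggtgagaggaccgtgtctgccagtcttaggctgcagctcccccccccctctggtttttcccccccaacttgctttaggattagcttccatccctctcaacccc
Vax1, chr19:59170398-59170647, minus strand: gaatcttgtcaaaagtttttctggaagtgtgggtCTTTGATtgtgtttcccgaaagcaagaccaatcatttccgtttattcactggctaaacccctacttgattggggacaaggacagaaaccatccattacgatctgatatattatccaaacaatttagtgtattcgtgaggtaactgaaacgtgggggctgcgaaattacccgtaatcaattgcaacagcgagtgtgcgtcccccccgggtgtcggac
Pax2, chr19:44755502-44755751, plus strand: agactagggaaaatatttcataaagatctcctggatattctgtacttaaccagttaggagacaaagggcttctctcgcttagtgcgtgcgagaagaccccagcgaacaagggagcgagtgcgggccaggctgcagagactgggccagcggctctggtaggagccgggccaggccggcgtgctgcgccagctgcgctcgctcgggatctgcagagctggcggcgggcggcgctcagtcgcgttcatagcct
CTTTGAT was the only 1 of the 3 sequences found, in the windows of Nr2f2 and Vax1. The Nr2f2 window also lies within an exon of a gene on the plus strand. For Nr2f1 the nearest window lies within the first exon of the counted transcript, holds none of the 3 sequences and is not shown. Pax2 had 3 windows, and only the nearest was searched, whose RefSeq start lay 293 bases from the start of the counted transcript. For Vax1 this distance was 341 bases. Among 32851 promoter windows of this length, 3.21% held CTTTGAT, 1.12% held AGGTGTGA and 0.225% held GACCACCCA. A match is a description of the letters in this window only.

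Expression is given as the deposited normalized values, called CPM by the study (read counts scaled to library size), in which 1 read was worth between 0.0620 and 0.0764. Libraries held between 12556998 and 16175450 reads on genes. The tissue identity was checked with optic markers, and Rax, the gene of the reporter, was at 164 ± 8.64 CPM at Day 10 and at 311 ± 28.6 in Day 15 +Fgf tissue, but at 5.41 ± 0.367 in Day 15 +Wnt tissue (SD, n = 3 here and for all means). Mitf, a marker of pigment epithelium, was at 126 ± 13.0 CPM at Day 10, at 18.6 ± 0.922 in Day 15 +Fgf and at 183 ± 12.1 in Day 15 +Wnt tissue. Differences between groups are in log2(CPM + 0.3), from limma fitted to all 15 libraries, with two-sided p-values adjusted over the 13845 entries by the Benjamini-Hochberg method and called under 0.05. On this scale the differences of genes near 0 are understated. In bulk tissue, fewer cells that express a gene and less RNA per cell cannot be told apart.

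At Day 15, Vax2, Pax2, Tbx2, Tbx3, Tbx5 and Nr2f1 were higher in +Fgf than in +Wnt tissue and Nr2f2 was lower, so that all 7 tested genes were called. Of all 13845 entries, 68.7% were called in this comparison, 38.0% higher and 30.6% lower, and replicates did not overlap for 7 of 7 genes and for 73.1% of all entries. The median of the absolute log2 differences was 2.78 for the 7 genes and 0.36 for all entries tested. The ventral Vax2 and Pax2 and the 3 dorsal T-box genes were all lower in +Wnt tissue. At Day 12, all 7 were also called, 5 higher and 2 lower in +Fgf tissue (51.5% of all entries called, 26.3% higher and 25.2% lower), and replicates did not overlap for 6 of 7 (60.4% of all entries), with a median absolute log2 difference of 1.88 against 0.24.

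**Figure D1:**
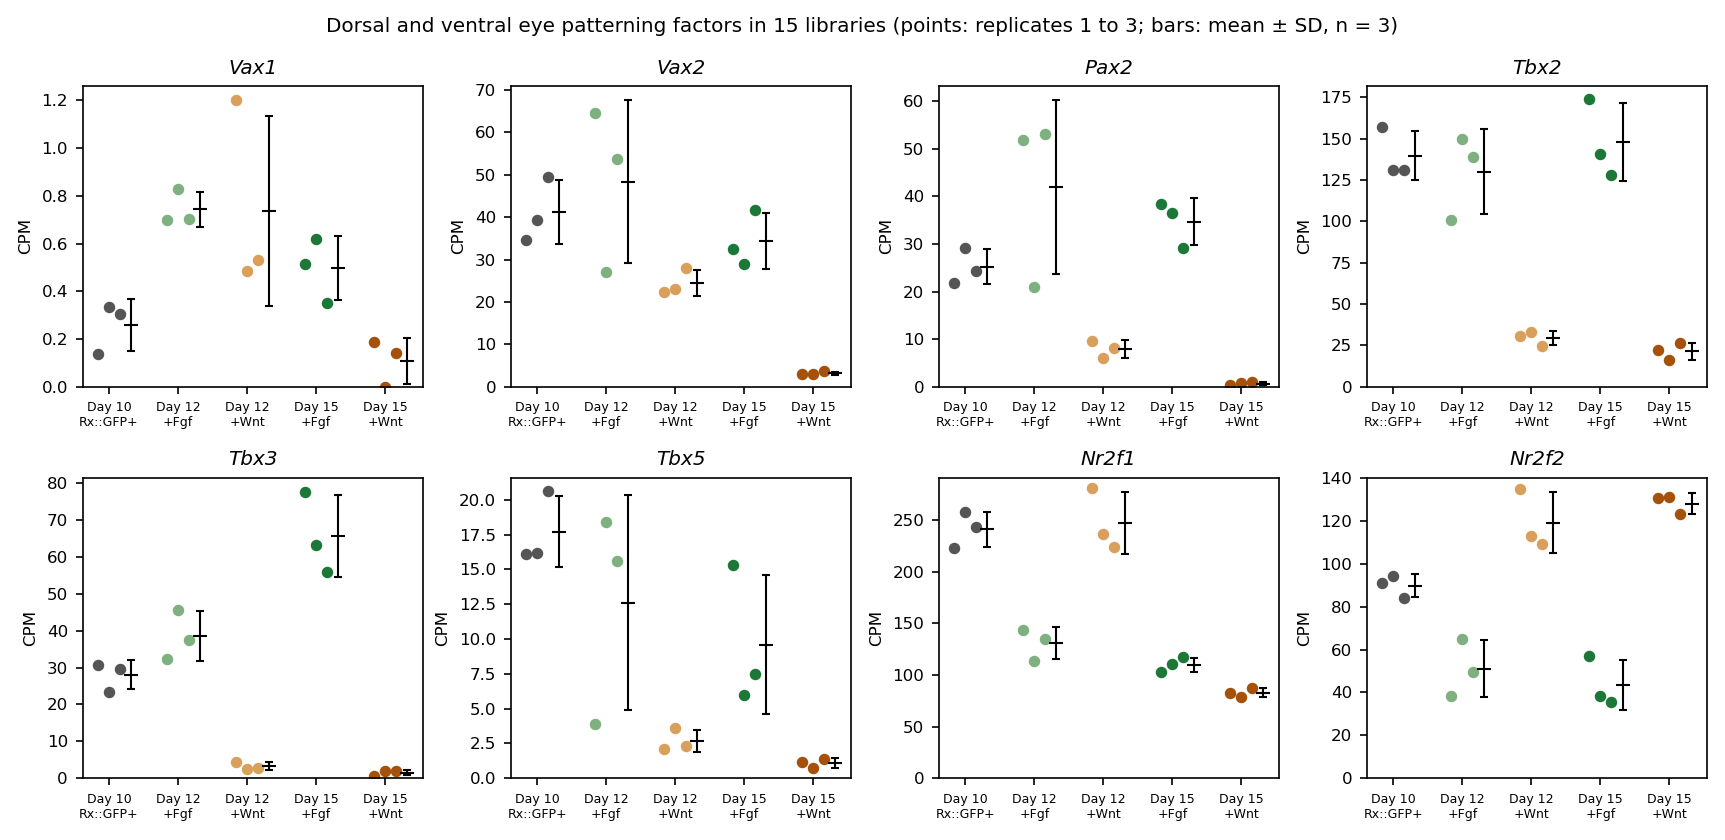
Expression of the 8 genes in CPM (vertical axes, linear, each from 0) in the 5 groups (horizontal axes). Points are single libraries in the order of replicates 1 to 3, and the bars beside them are the mean ± SD (n = 3). Vax2, Pax2, Tbx2, Tbx3 and Tbx5 were lowest in Day 15 +Wnt tissue, while Nr2f2 was highest there at 128 ± 4.72 CPM.

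The ventral gene Vax2 was expressed in all groups. It was measured at 34.7, 39.4 and 49.6 CPM in the Day 10 replicates, at 64.6, 27.1 and 53.7 in Day 12 +Fgf, and at 32.6, 29.0 and 41.8 in Day 15 +Fgf tissue. In +Wnt tissue it was measured at 22.4, 23.0 and 28.0 CPM at Day 12 and at 2.92, 2.91 and 3.65 at Day 15. Each Day 15 +Wnt library lay below each library of every other group, and the +Fgf libraries overlapped with Day 10. Vax2 was lower than at Day 10 by 0.74 on the log2 scale at Day 12 +Wnt (log2 difference -0.74, SE 0.23, limma adjusted p = 0.012) and by far more at Day 15 (-3.58, SE 0.23, limma adjusted p = 3.26e-10). The Day 12 value rested in part on Day 10 replicate 3, without which it was -0.60 (limma adjusted p = 0.062). Between the stimulations, Vax2 was higher in +Fgf tissue at Day 12 (0.89, SE 0.23, limma adjusted p = 0.0043), where the replicates overlapped, and at Day 15 (3.32, SE 0.23, limma adjusted p = 1.95e-09), where they did not.

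Pax2, the optic stalk and fissure gene, moved in the same direction over a wider range. In Day 10 tissue it was at 21.9, 29.1 and 24.4 CPM, and in +Fgf tissue at 51.8, 21.0 and 53.2 CPM at Day 12 and at 38.4, 36.6 and 29.2 CPM at Day 15. In +Wnt tissue it was at 9.69, 6.06 and 8.21 CPM at Day 12 and at 0.310, 0.820 and 0.912 CPM, or 5 to 13 reads, at Day 15. The 3 +Wnt levels were separated from Day 10 at both days, and Day 15 +Fgf libraries all lay above Day 10. This last difference did not pass the test (0.46, SE 0.30, limma adjusted p = 0.18), nor did that of Day 12 +Fgf tissue (0.63, SE 0.30, limma adjusted p = 0.092), which edgeR called (0.72, adjusted p = 0.021). Against Day 10, Pax2 fell in +Wnt tissue by Day 12 (-1.63, SE 0.30, limma adjusted p = 2.21e-04) and further by Day 15 (-4.75, SE 0.30, limma adjusted p = 2.52e-10). At Day 15 the difference between +Fgf and +Wnt was 5.21 (95% interval 4.57 to 5.86, limma adjusted p = 1.87e-10), a ratio of 37.1 on this scale.

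Vax1, the optic stalk paralogue of Vax2, was near the limit of detection. The libraries held 2, 5 and 4 reads at Day 10, 11, 13 and 11 reads in Day 12 +Fgf, and 19, 7 and 8 reads in Day 12 +Wnt tissue. At Day 15 they held 7, 9 and 5 reads in +Fgf and 3, 0 and 2 reads in +Wnt tissue, where 0 reads allow up to 0.224 CPM by counting error alone. No group mean passed 0.743 CPM, so the gene was left out of the main test. When limma was fitted without the filter, Vax1 was higher than at Day 10 in Day 12 +Fgf (0.92, SE 0.25, limma adjusted p = 0.0083) and Day 12 +Wnt tissue (0.85, SE 0.25, limma adjusted p = 0.012). The 2 stimulations did not differ detectably at Day 12 (0.07, SE 0.25, limma adjusted p = 0.89). No fold is given against Day 15 +Wnt tissue, since all its libraries held at most 3 reads.

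The antisense gene Vax2os lies opposite Vax2 without shared exons and was singled out after its values were seen. Its replicates were at 17.0, 27.7 and 28.6 CPM at Day 10, at 52.3, 17.5 and 41.8 in Day 12 +Fgf, and at 17.1, 16.8 and 22.8 in Day 15 +Fgf tissue. In Day 12 +Wnt tissue they lay between 8.28 and 11.2 CPM, and the Day 15 +Wnt libraries held 3, 2 and 2 reads. Vax2os was thus lowest in the same replicate of Day 12 +Fgf tissue, replicate 2, as Vax2. At Day 12 it was higher in +Fgf than in +Wnt tissue by 1.81 (SE 0.29, limma adjusted p = 6.88e-05). Whether reads of either strand were counted for the other gene was not tested.

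Among the dorsal factors, Tbx2, which encodes a repressor, had the highest level per transcript length. Its CPM was at 157, 131 and 131 CPM at Day 10, at 101, 150 and 139 in Day 12 +Fgf, and at 174, 141 and 128 in Day 15 +Fgf tissue. In +Wnt tissue it was at 30.9, 33.1 and 24.9 CPM at Day 12 and at 22.1, 16.1 and 26.3 at Day 15. All +Wnt libraries were below all others, and the 3 remaining groups overlapped with each other. The loss in +Wnt tissue was largely there at Day 12 (-2.23, SE 0.17, limma adjusted p = 1.49e-08), with a further -0.47 to Day 15 (SE 0.17, limma adjusted p = 0.02). This step lost its call without Day 15 +Wnt replicate 2 (-0.28, limma adjusted p = 0.14), Day 12 +Wnt replicate 1 (-0.44, 0.059) or replicate 2 (-0.39, 0.084), and with edgeR (-0.40, adjusted p = 0.073). In +Fgf tissue the difference of Tbx2 from Day 10 was not called, with 95% intervals of -0.47 to 0.24 at Day 12 and -0.28 to 0.43 at Day 15.

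Tbx3, which encodes a repressor of the same subfamily, was called higher in +Fgf tissue than at Day 10, at Day 15. The Day 10 replicates were at 30.8, 23.5 and 29.6 CPM. After +Fgf stimulation the values were 32.3, 45.7 and 37.4 CPM at Day 12 and 77.6, 63.2 and 55.8 at Day 15. The 3 groups did not overlap. At Day 12 the difference from Day 10 was not called by limma (0.45, SE 0.25, limma adjusted p = 0.14) and was by edgeR (0.44, adjusted p = 0.03). At Day 15 Tbx3 was 1.22 higher than at Day 10 (SE 0.25, limma adjusted p = 3.76e-04), where 13.7% of all entries were called higher by at least 1. The step from Day 12 to Day 15 was 0.77 (SE 0.25, limma adjusted p = 0.016), and lost its call without Day 12 +Fgf replicate 1 (0.65, limma adjusted p = 0.071), without Day 15 +Fgf replicate 1 (0.64, limma adjusted p = 0.066) or with RNA integrity as a covariate (1.24, limma adjusted p = 0.085). After +Wnt stimulation, Tbx3 was at 4.47, 2.64 and 2.85 CPM at Day 12 and at 0.744, 1.86 and 2.03 CPM at Day 15. It thus fell by Day 12 (-2.99, SE 0.25, limma adjusted p = 5.12e-08) and again by Day 15 (-1.02 from Day 12, SE 0.25, limma adjusted p = 0.0018). This second step rests on 12 to 29 reads at Day 15, and was -0.65 (limma adjusted p = 0.0092) without Day 15 +Wnt replicate 1 and -1.71 (limma adjusted p = 6.98e-06) after quantile normalization. The difference between +Fgf and +Wnt was 3.44 at Day 12 and 5.23 at Day 15 (SE 0.25, limma adjusted p = 7.78e-09 and 1.63e-11).

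Tbx5, whose gene follows Tbx3 on chromosome 5, did not share the rise. The values were 16.1, 16.2 and 20.6 CPM at Day 10, 3.87, 18.4 and 15.6 in Day 12 +Fgf, and 15.3, 5.98 and 7.49 in Day 15 +Fgf tissue. In +Wnt tissue they were 2.14, 3.62 and 2.32 CPM at Day 12 and 1.18, 0.746 and 1.40 at Day 15, or 10 to 20 reads. Day 15 +Fgf libraries all lay below Day 10, and the difference was close to the threshold (-0.97, SE 0.43, limma adjusted p = 0.055), which it passed in 4 of 15 alternatives. These were the fit without Day 15 +Fgf replicate 1 (-1.35, limma adjusted p = 0.013), a pseudocount of 1 CPM (-0.91, 0.045), quantile normalization (-1.22, 0.016) and RNA integrity as a covariate (-1.48, 0.016). In +Wnt tissue Tbx5 was lower than at Day 10 by Day 12 (-2.61, SE 0.43, limma adjusted p = 7.67e-05) and by Day 15 (-3.69, SE 0.43, limma adjusted p = 6.00e-07). The step between these days (-1.08, SE 0.43, limma adjusted p = 0.036) lost its call in 7 of 15 alternatives. These were no filter (limma adjusted p = 0.06), a pseudocount of 1 CPM (-0.80, 0.079), edgeR (-1.20, 0.12), and the fits without Day 12 +Wnt replicate 2 (-0.87, 0.13) or 3 (-1.16, 0.053) and without Day 15 +Wnt replicate 1 (-1.13, 0.058) or 2 (-0.88, 0.13). After quantile normalization it was -1.85 (limma adjusted p = 9.53e-04). The Day 15 difference between +Fgf and +Wnt (2.72, SE 0.43, limma adjusted p = 3.19e-05) was 1.57 (limma adjusted p = 0.1) with RNA integrity as a covariate.

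The COUP-TF genes took different courses. Nr2f1 was at 223, 258 and 243 CPM at Day 10, at 144, 114 and 135 in Day 12 +Fgf, and at 103, 110.2 and 117 in Day 15 +Fgf tissue. In Day 12 +Wnt tissue it was at 281, 236 and 224 CPM, which overlapped with Day 10, and in Day 15 +Wnt tissue at 82.3, 78.5 and 87.5 CPM, below every other library. Nr2f1 was thus lower in +Fgf than in +Wnt tissue at Day 12 (-0.91, SE 0.09, limma adjusted p = 2.44e-07) and higher at Day 15 (0.41, SE 0.09, limma adjusted p = 6.54e-04), by 0.64 with RNA integrity as a covariate. It had fallen by Day 12 in +Fgf tissue (-0.89 against Day 10, SE 0.09, limma adjusted p = 4.97e-07) and between Day 12 and Day 15 in +Wnt tissue (-1.57, SE 0.09, limma adjusted p = 2.32e-10). A further step of -0.25 in +Fgf tissue (SE 0.09, limma adjusted p = 0.027) was not called without Day 12 +Fgf replicate 1 (-0.17, 0.14) or 3 (-0.22, 0.081), without Day 15 +Fgf replicate 1 (-0.20, 0.1) or 2 (-0.25, 0.056), or after quantile normalization (-0.19, 0.076). With RNA integrity as a covariate it was 0.01 (limma adjusted p = 0.96). The overlapping antisense gene A830082K12Rik was at most at 20.9 CPM, and it also fell from Day 12 to Day 15 in +Wnt tissue (-1.18, SE 0.16, limma adjusted p = 6.13e-06).

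Nr2f2 was the only 1 of the 8 genes with its highest level in +Wnt tissue at Day 15. Its libraries were at 90.8, 94.4 and 84.1 CPM at Day 10, at 135, 113 and 109 in Day 12 +Wnt, and at 130.4, 131 and 123 in Day 15 +Wnt tissue. In +Fgf tissue they were at 38.5, 65.0 and 49.6 CPM at Day 12 and at 57.0, 38.3 and 35.7 at Day 15. All +Wnt libraries lay above Day 10 and all +Fgf libraries below it. The rise in +Wnt tissue was 0.51 at Day 15 (SE 0.16, limma adjusted p = 0.0086), and at Day 12 it was 0.40 (SE 0.16, limma adjusted p = 0.043) and lost its call in 7 of 15 alternatives. These were the fits without Day 10 replicate 1 (0.41, 0.075), 2 (0.44, 0.061) or 3 (0.35, 0.12), without Day 12 +Wnt replicate 1 (0.30, 0.16) or 2 (0.44, 0.062), without the filter (0.40, 0.069) and with median-of-ratios scaling (0.39, 0.051). In +Fgf tissue Nr2f2 fell by Day 12 (-0.84, SE 0.16, limma adjusted p = 3.63e-04) and was -1.06 from Day 10 at Day 15 (SE 0.16, limma adjusted p = 1.78e-05). Between +Fgf and +Wnt the difference was -1.24 at Day 12 and -1.58 at Day 15 (SE 0.16, limma adjusted p = 7.41e-06 and 2.28e-07). The opposite gene B130024G19Rik, which shares 643 bases of exon with Nr2f2, had at most 3.10 CPM and was also lower in +Fgf tissue at Day 15 (-1.77, limma adjusted p = 1.47e-04). As a result of both courses, the ratio of Nr2f1 to Nr2f2 in CPM went from between 2.46 and 2.89 in the Day 10 libraries to between 0.599 and 0.714 in those of Day 15 +Wnt, and lay between 1.81 and 3.27 in Day 15 +Fgf tissue.

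**Figure D2:**
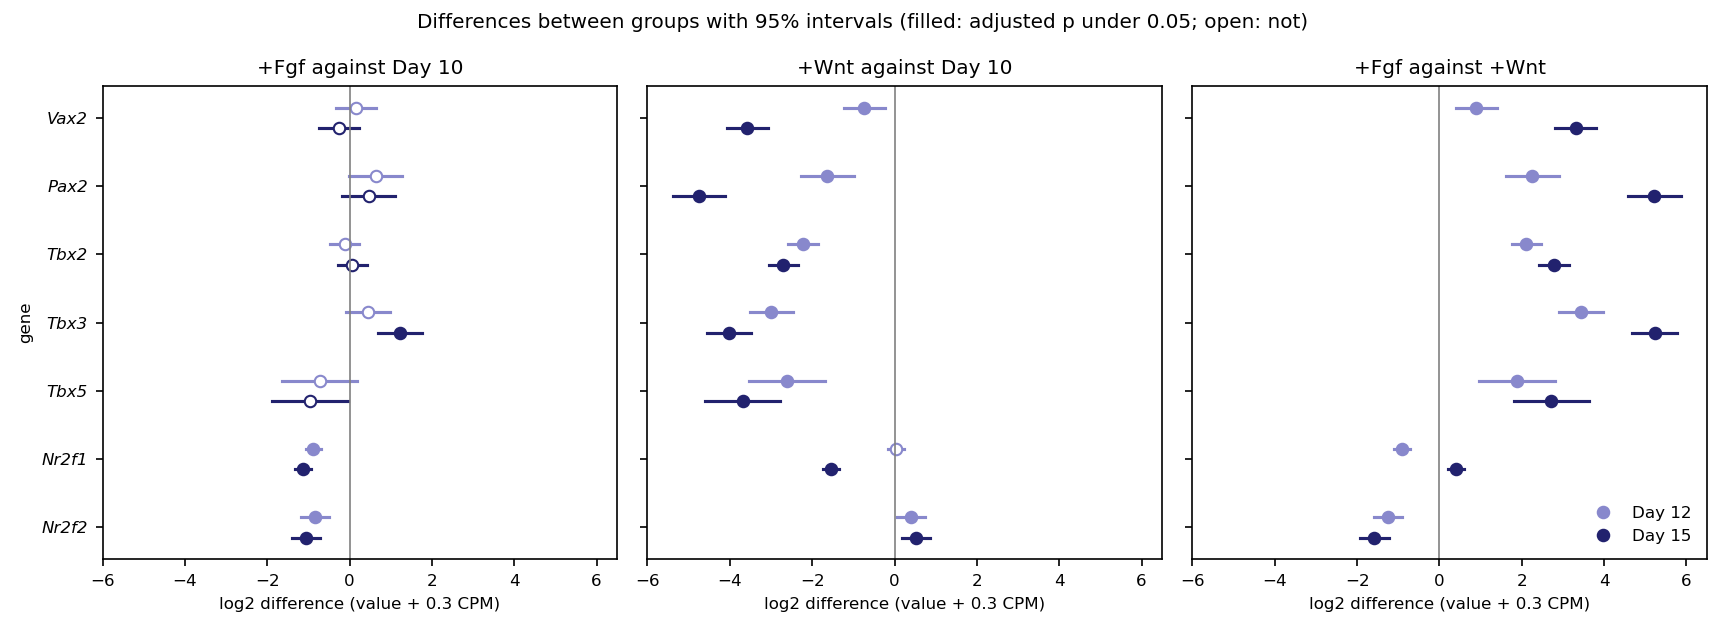
Log2 differences (horizontal axes, value + 0.3 CPM) of the 7 tested genes (vertical axis) for +Fgf against Day 10, +Wnt against Day 10 and +Fgf against +Wnt, at Day 12 (light) and Day 15 (dark). Lines are 95% intervals from limma, and filled points were called at an adjusted p under 0.05. Nr2f1 is the 1 gene on opposite sides of 0 at both days in the right panel, at -0.91 and 0.41.

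By comparison, 2 of 7 genes were called between Day 12 +Fgf and Day 10, both COUP-TF genes and both lower (55.7% of all entries called, 27.8% lower), and 3 of 7 did not overlap (61.0% of all entries). Between Day 12 +Wnt and Day 10, 6 of 7 were called, 5 lower and Nr2f2 higher (60.2% of all entries, 29.6% lower and 30.6% higher), and 6 of 7 did not overlap (64.3%). Of these, Pax2, Tbx2, Tbx3 and Tbx5, 4 in all, fell by at least 1, as did 3.89% of all entries. Between Day 15 and Day 10, 3 of 7 were called in +Fgf tissue, 1 higher and 2 lower (72.6% of all entries, 36.2% higher and 36.4% lower), and 5 of 7 did not overlap (73.8%). In +Wnt tissue all 7 were called, 6 lower and 1 higher (79.8% of all entries, 40.2% lower and 39.6% higher). All 6 fell by at least 1, which 8.80% of all entries did. These comparisons share the Day 10 libraries and are not independent of each other. The replicates did not overlap for 7 of 7 genes between Day 15 +Wnt and Day 10, where this held for 80.6% of all entries.

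In +Wnt tissue the dorsal and the ventral genes had their larger steps at different times. From Day 10 to Day 12 the differences were -2.23, -2.99 and -2.61 for Tbx2, Tbx3 and Tbx5, and -0.74 and -1.63 for Vax2 and Pax2. From Day 12 to Day 15 they were -0.47, -1.02 and -1.08 for the T-box genes and -2.84 and -3.12 for Vax2 and Pax2. In this second step 6 of 7 genes were called, all lower, where 68.0% of all entries were called and 35.5% lower, and 5 of 7 did not overlap (72.8%). The exception was Nr2f2 (0.11, SE 0.16, limma adjusted p = 0.56). In +Fgf tissue 2 of 7 were called over the same days (57.1% of all entries, 27.2% higher and 29.9% lower), Tbx3 higher and Nr2f1 lower, and 1 of 7 did not overlap (63.7%). The steps before and after Day 12 share the Day 12 libraries, and a difference in timing between the dorsal and ventral genes was not tested.

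The change from Day 12 to Day 15 was compared between the stimulations as an interaction, for which 47.9% of all entries were called and 27.0% higher. It was called for 5 of 7 genes, all with a higher log2 change in +Fgf than in +Wnt tissue. The interaction was 2.43 for Vax2 (SE 0.33, limma adjusted p = 1.59e-05) and 2.95 for Pax2 (SE 0.43, limma adjusted p = 3.17e-05). For Nr2f1 it was 1.32 (SE 0.13, limma adjusted p = 3.47e-07), and for Tbx3, which rose in one condition and fell in the other, 1.79 (SE 0.36, limma adjusted p = 6.04e-04). For Tbx2 it was 0.66 (SE 0.24, limma adjusted p = 0.031), which lost its call in 7 of 21 alternatives. These were edgeR (0.60, adjusted p = 0.052), RNA integrity as a covariate (0.24, 0.69), and the fits without Day 12 +Fgf replicate 1 (0.49, 0.092), Day 12 +Wnt replicate 1 (0.63, 0.06) or 2 (0.58, 0.078), Day 15 +Fgf replicate 1 (0.54, 0.08) or Day 15 +Wnt replicate 2 (0.47, 0.088). Tbx5 (0.85, 95% interval -0.45 to 2.15) and Nr2f2 (-0.33, -0.82 to 0.15) did not pass (limma adjusted p = 0.27 and 0.25), and Nr2f2 passed without Day 15 +Fgf replicate 1 (-0.54, 0.032).

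Single libraries of +Fgf tissue differed widely in both sets of factors. In Day 12 +Fgf replicate 2, Vax2 and Pax2 were lowest of the 3 replicates at 27.1 and 21.0 CPM, while Tbx5 was highest there at 18.4 CPM. In replicate 1, Tbx5 was at 3.87 CPM and Tbx2 lowest at 101 CPM, and Vax2 was highest at 64.6. The ratio of Tbx5 to Vax2 ranged from 0.0599 in replicate 1 to 0.680 in replicate 2, against 0.413 to 0.466 in the Day 10 replicates. Aldh1a1, the retinaldehyde dehydrogenase gene of the dorsal retina, was at 37.1, 291 and 155 CPM in the same libraries, and Gdf6, a dorsal BMP ligand, at 5.13, 14.3 and 8.31 CPM. At Day 15, replicate 1 was highest for Tbx5 (15.3 CPM), Aldh1a1 (112 CPM) and Gdf6 (11.4 CPM). The ventral gene Pax2 was also highest there at 38.4 CPM, and Vax2 lay between the other replicates at 32.6 CPM. The same library was lowest of the 3 for the telencephalon markers Tbr1 (0.885, 26.2 and 41.2 CPM in replicates 1, 2 and 3), Emx2 (0.811, 8.52 and 19.5 CPM) and Emx1 (0, 7.69 and 11.6 CPM). Without it, all 7 tested genes were still called between +Fgf and +Wnt tissue at Day 15, 6 higher and 1 lower. Without Day 12 +Fgf replicate 2, Vax2 (0.53, limma adjusted p = 0.015) and Pax2 (1.06, limma adjusted p = 0.0019) were higher and Tbx5 lower (-1.13, limma adjusted p = 0.042) than at Day 10, so the count of genes called there went from 2 to 5. Between Day 12 and Day 15 in +Fgf tissue, leaving out that library gave -0.78 for Vax2 (limma adjusted p = 9.18e-04) and -0.60 for Pax2 (limma adjusted p = 0.05), and 4 genes called. Without Day 12 +Fgf replicate 1, Tbx5 (-0.92, 0.025) and Nr2f2 (-0.41, 0.04) were called lower over the same days, and Nr2f2 also without Day 15 +Fgf replicate 1 (-0.43, 0.019). Markers of the telencephalon varied in the Day 12 libraries too, Emx2 at 32.5, 29.9 and 10.9 CPM and Tbr1 at 7.42, 17.8 and 2.87 CPM, and the part of these markers in the results at either day was not tested.

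**Figure D3:**
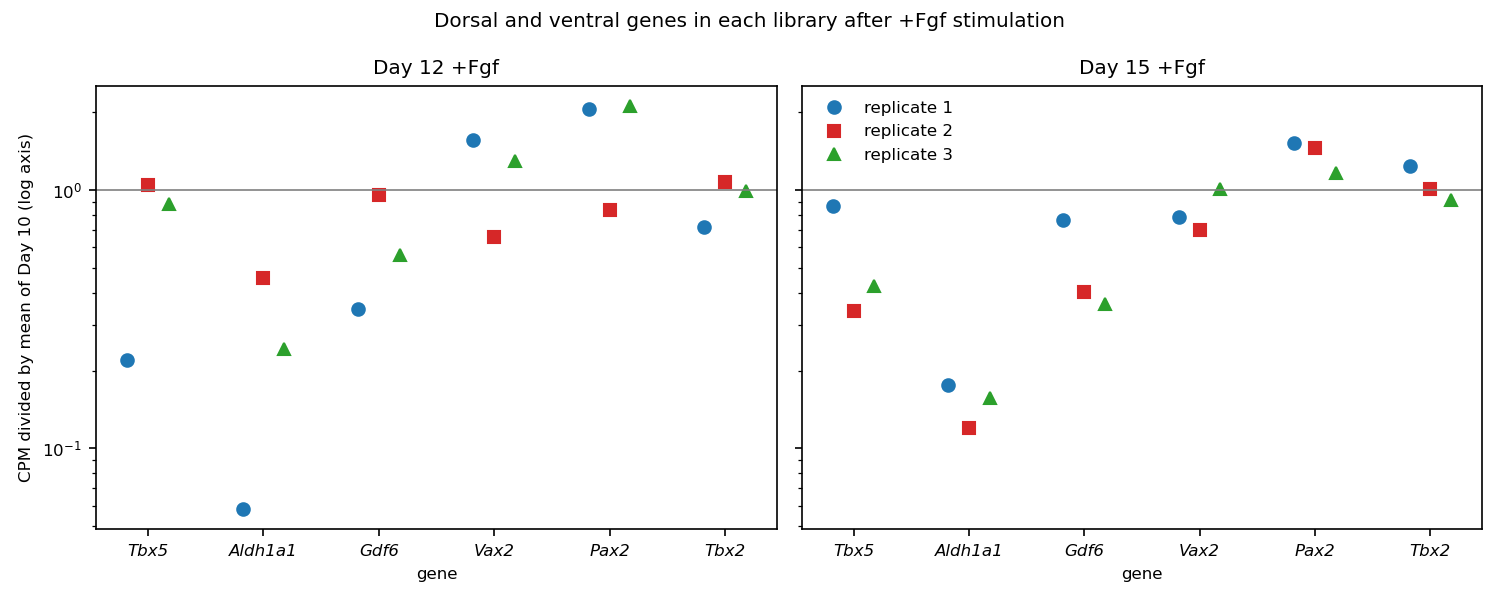
CPM of 4 patterning factors and of the dorsal genes Aldh1a1 and Gdf6 in each +Fgf library, divided by the mean of the Day 10 group (vertical axis, logarithmic), at Day 12 (left) and Day 15 (right). Symbols are replicates and the line marks the Day 10 level. In Day 12 +Fgf replicate 1, Tbx5, Aldh1a1, Gdf6 and Tbx2 are lowest and Vax2 is highest of the 3 replicates.

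Signals and effectors of the same axis did not all follow the transcription factors. Of 6 dorsal genes, 4 were higher in +Fgf than in +Wnt tissue at both days and 2 were lower. Of all entries, 26.3% were called higher and 25.2% lower at Day 12, and 38.0% and 30.6% at Day 15. Aldh1a1 was at 637 ± 111 CPM at Day 10, 96.2 ± 18.1 in Day 15 +Fgf and 5.26 ± 0.961 in Day 15 +Wnt tissue (difference at Day 15 4.11, SE 0.51, limma adjusted p = 1.78e-06). Gdf6 was at 14.9 ± 1.38 CPM at Day 10 and at 7.59 ± 3.34 and 0.420 ± 0.150 CPM in the 2 Day 15 groups. Efnb2, an ephrin gene of the dorsal retina, and Bambi, which encodes a BMP pseudoreceptor, were higher in +Fgf tissue at Day 15 by 0.76 and 1.26. Bmp4, the ligand that sets dorsal identity, went the other way, from 41.0 ± 5.74 CPM at Day 10 to 5.95 ± 2.37 in Day 15 +Fgf tissue, while it was at 33.4 ± 2.69 in Day 15 +Wnt tissue (difference -2.51, SE 0.20, limma adjusted p = 7.93e-09). Efnb1 was also lower in +Fgf tissue (-0.52 at Day 15, SE 0.15, limma adjusted p = 0.0055). Tbx3 was highest in Day 15 +Fgf tissue, where Bmp4 was lowest and Gdf6 was higher than in Day 15 +Wnt tissue. A link of Tbx3 to either ligand was not tested.

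Of 6 ventral genes, 3 were higher in +Fgf tissue at Day 15 and 1 was lower, against 38.0% and 30.6% of all entries. Chrdl1, which encodes a BMP antagonist of the ventral retina, was at 53.9 ± 3.21 CPM in Day 15 +Fgf and at 2.84 ± 0.151 in Day 15 +Wnt tissue, from 22.6 ± 2.61 at Day 10 (difference at Day 15 4.11, SE 0.10, limma adjusted p = 7.55e-15). Aldh1a3, the ventral retinaldehyde dehydrogenase gene, was at 39.3 ± 14.0 CPM in Day 15 +Fgf tissue and higher there than in +Wnt tissue (1.95, SE 0.21, limma adjusted p = 3.73e-07), against 67.6 ± 10.7 CPM at Day 10. The guidance receptor gene Ephb2 was higher in +Fgf tissue at Day 15 (0.68, limma adjusted p = 1.99e-07), and Ntn1, which encodes netrin-1, was lower (-0.95, limma adjusted p = 0.0027). Ephb3 and the BMP antagonist gene Smoc1 differed by 0.09 and -0.08 at Day 15 and were not called (limma adjusted p = 0.43 and 0.77).

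**Figure D4:**
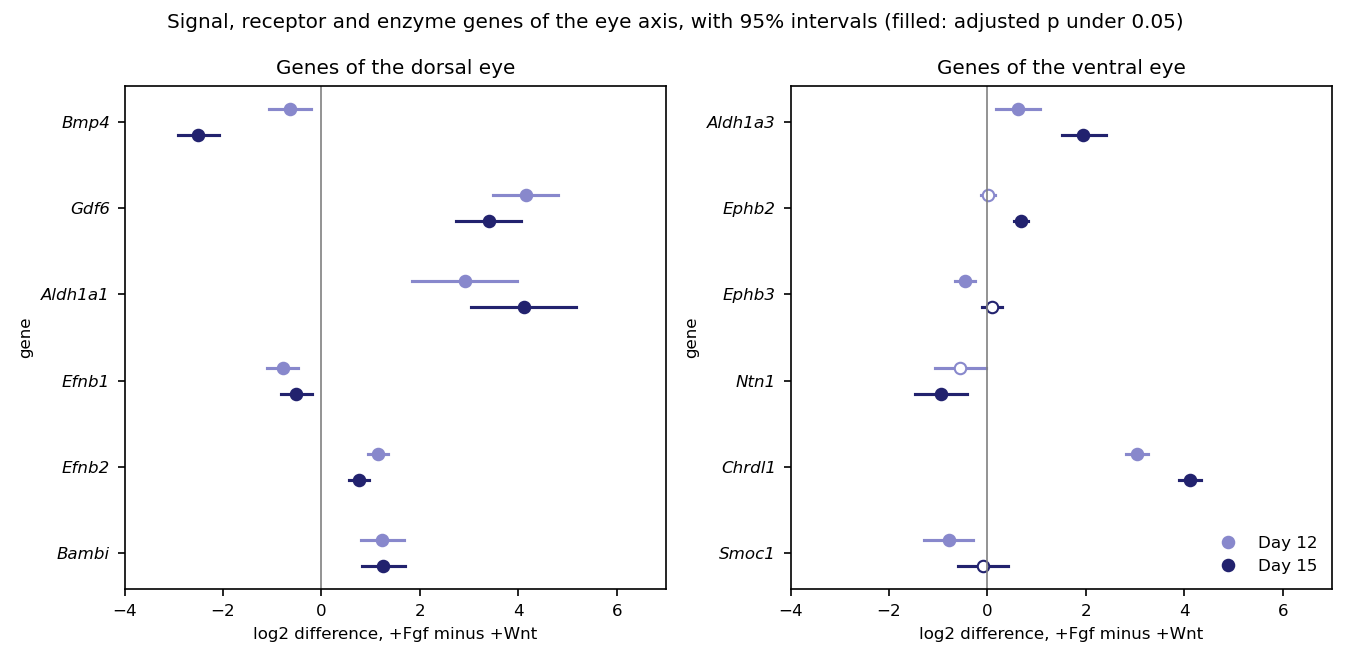
Log2 differences of +Fgf minus +Wnt tissue (horizontal axes) for 6 genes of the dorsal eye (left) and 6 of the ventral eye (right), at Day 12 (light) and Day 15 (dark), with 95% intervals. Filled points were called by limma. Chrdl1, Aldh1a1 and Gdf6 lie farthest to the right, and Bmp4 lies to the left of 0 at both days.

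Among 7 BMP response genes, 5 were higher in +Fgf than in +Wnt tissue at each day, 1 was lower and 1 was not called. Of all entries, 26.3% were higher and 25.2% lower at Day 12, and 38.0% and 30.6% at Day 15. The part of the signals above and of the serum in the values of these 7 genes was not tested. Id1 was at 159 ± 10.7 and 55.9 ± 8.16 CPM in Day 12 +Fgf and +Wnt tissue, and also higher in +Fgf at Day 15 (1.14, limma adjusted p = 6.48e-08) and Id3 was at 408 ± 31.7 and 195 ± 9.67 CPM at Day 15 (1.06, limma adjusted p = 1.75e-08). Msx1 was at 1.55 ± 1.12 and 10.8 ± 2.07 CPM (-2.79, limma adjusted p = 1.38e-06). Of the Hedgehog genes, the ligand Shh had at most a group mean of 0.755 CPM and Nkx2-1, a ventral forebrain gene, of 1.31 CPM, both in Day 15 +Fgf tissue. The receptor and target gene Ptch1 was at 37.1 ± 3.62 CPM in Day 15 +Fgf against 20.4 ± 3.64 in Day 15 +Wnt tissue (0.86, limma adjusted p = 1.84e-04) and Gli1 at 10.6 ± 2.53 against 4.24 ± 1.10 (1.27, limma adjusted p = 0.0057), although Gli1 was lower in +Fgf tissue at Day 12 (-1.52, limma adjusted p = 0.0024), whereas Hhip was higher in +Wnt tissue, at 42.6 ± 8.17 against 5.76 ± 1.56 CPM (-2.84, limma adjusted p = 2.32e-09). Cyp26a1, whose enzyme removes retinoic acid from the stripe between the dorsal and ventral retina, was at 4.98 ± 1.08 CPM at Day 10, 82.2 ± 15.2 in Day 12 +Fgf and 38.2 ± 10.6 in Day 15 +Fgf tissue, and at most at 1.19 CPM in the +Wnt libraries. Cyp26b1, which encodes a related enzyme, was at 1.07 ± 0.407 CPM at Day 10, at 1.77, 20.8 and 29.6 CPM in the Day 15 +Fgf replicates and at 19.4, 15.4 and 23.5 CPM in those of Day 15 +Wnt (-0.83, 95% interval -2.23 to 0.57, limma adjusted p = 0.28). Cyp26c1, the remaining gene of this family, was called higher in +Fgf tissue at both days, at group means of at most 1.46 CPM. On the nasal-temporal axis, Hmx1, a nasal gene, was at 84.8 ± 1.70 CPM at Day 10, 75.2 ± 7.31 in Day 15 +Fgf and 3.33 ± 0.487 in Day 15 +Wnt tissue (difference at Day 15 4.38, SE 0.12, limma adjusted p = 3.31e-14). The temporal gene Foxd1 was at 0.191 ± 0.0899 CPM in Day 15 +Fgf and 1.26 ± 0.425 in Day 15 +Wnt tissue (-1.65, limma adjusted p = 0.043).

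Of 23 relatives in the T-box, Pax and Nr2f families, 12 passed the filter. At Day 15, 4 were higher and 6 lower in +Fgf than in +Wnt tissue, against 38.0% and 30.6% of all entries. Tbx20, a T-box gene, was measured at 31.6 ± 4.29 CPM at Day 10, 49.3 ± 2.86 in Day 12 +Fgf and 4.29 ± 0.528 in Day 12 +Wnt tissue. At Day 15 it was at 7.52 ± 1.90 and 0.520 ± 0.289 CPM, so that in contrast to Tbx3 it fell between Day 12 and Day 15 in +Fgf tissue (-2.69, SE 0.23, limma adjusted p = 5.34e-08). Tbx15, a mesenchymal T-box gene, was higher in +Wnt tissue, at 5.67 ± 1.21 against 0.305 ± 0.142 CPM (-3.31, limma adjusted p = 1.44e-08). Pax8, of the same subfamily as Pax2, was higher in +Fgf tissue, at 5.38 ± 0.584 against 0.164 ± 0.110 CPM, and Pax6, which with Pax2 divides retina from stalk, was at 595 ± 12.1 and 245 ± 7.03 CPM (1.28, limma adjusted p = 3.57e-12). Nr2f6, the third COUP-TF relative, was at 87.4 ± 13.8 and 43.3 ± 3.71 CPM (1.00, limma adjusted p = 2.20e-06), as for Nr2f1 higher in +Fgf tissue at Day 15. At Day 12 Nr2f6 was at 112 ± 20.7 CPM in +Fgf and 80.5 ± 4.86 in +Wnt tissue, whereas Nr2f1 was lower in +Fgf tissue (-0.91).

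Levels were compared between genes per kb of counted transcript. At Day 10 the order of the group means was Nr2f1 at 75.2 CPM per kb, Nr2f2 at 53.9, Tbx2 at 38.5, Vax2 at 33.2, Tbx3 at 5.86, Pax2 at 5.77, Tbx5 at 4.48 and Vax1 at 0.248 CPM per kb. Among the T-box genes, Tbx2 thus had several times the level of Tbx3 and Tbx5. In Day 15 +Fgf tissue Tbx2 led with 40.7 CPM per kb, followed by Nr2f1 at 34.3, Vax2 at 27.7, Nr2f2 at 26.2 and Tbx3 at 13.7. In Day 15 +Wnt tissue Nr2f2 led with 76.9 CPM per kb, Nr2f1 was at 25.8, and all others lay between 0.104 (Vax1) and 5.93 (Tbx2).

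The genes whose group means followed each factor most closely were found by the root mean square distance of centred log2 means over the 5 groups, among 12106 candidates, and this is a description of 5 means. Nearest to Vax2 were Metrn (0.237), Lrrc66 (0.422) and Fndc3c1 (0.438). Tbx2 was followed by Frat1 (0.193), Casz1 (0.260) and Met (0.309), and Tbx3 by Egfem1 (0.182), Cp (0.431) and Gcnt4 (0.448). Nearest to Nr2f1 were Col18a1 (0.185), Mtmr10 (0.190) and Akap13 (0.212). Pax2 was followed by Crhbp (0.243), by Rax (0.251) and by Hmx1 (0.327). Tbx5 was nearest to Grrp1 (0.326) followed by Tbx2 (0.388) and H19 (0.390), the 1 case in which another factor of the axis was among the nearest 3. Nr2f2 had the closest neighbours, Creg1 (0.072), C77080 (0.076) and Fam110b (0.081).

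Markers of other cell types moved with the groups. The 4 telencephalon markers summed to between 38.8 and 113 CPM in the Day 15 +Fgf libraries and to between 317 and 381 CPM in Day 15 +Wnt, against 87.3 to 112 CPM at Day 10. Dlx2 made up 37.1, 37.7 and 40.6 CPM of the sums in Day 15 +Fgf replicates 1, 2 and 3, and thus nearly all of the lowest. Of these 4, Emx1, Emx2 and Tbr1 were higher in +Wnt tissue at Day 15 and Dlx2, which retinal ganglion cells also express, was higher in +Fgf tissue. At Day 15, 5 of the 6 mesenchyme markers were called higher in +Wnt tissue, as were 30.6% of all entries. The 6 summed to between 34.9 and 43.6 CPM in Day 15 +Fgf and between 118 and 148 CPM in Day 15 +Wnt tissue. Col1a1 made up 61.5 ± 13.1 CPM of the latter, and at Day 12 it was higher in +Fgf tissue (2.83, limma adjusted p = 3.80e-08). At Day 12 the mesenchyme sums were between 52.8 and 67.0 CPM in +Wnt and between 68.3 and 79.3 CPM in +Fgf tissue. Col1a1 was then at 3.06 ± 0.558 CPM in +Wnt and 23.9 ± 6.07 in +Fgf tissue, and Prrx1 at 43.8 ± 4.31 and 34.8 ± 1.35 CPM. Of the 6 markers, 2 were called higher and 1 lower in +Fgf tissue at Day 12 (26.3% and 25.2% of all entries), and 3 were not called. Nr2f2 was higher in +Wnt than in +Fgf tissue at both days, and the part of mesenchyme in this was not tested. The 3 retinal ganglion cell markers summed to between 272 and 325 CPM in Day 15 +Fgf and to at most 2.54 CPM in Day 15 +Wnt tissue. Neural crest markers (3 genes) stayed at or below 9.33 CPM and midbrain-hindbrain markers (4 genes) at or below 9.89 CPM in sum. Sox10 and Foxd3 of the former and En1 and Pax5 of the latter were below the filter. Sox10 still reached 3.04 CPM in Day 15 +Fgf replicate 3. The tested En2 and Pax8 were higher in Day 15 +Fgf than in Day 15 +Wnt tissue. En2 was at 3.24 ± 0.292 against 1.54 ± 0.904 CPM and Pax8 at 5.38 ± 0.584 against 0.164 ± 0.110 CPM. Tfap2a was at 2.18 ± 0.0630 CPM at Day 10, 6.83 ± 0.961 in Day 15 +Fgf and 5.56 ± 0.363 in Day 15 +Wnt tissue. The part of these cell types in the values of the patterning factors was not tested.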

How the data were processed

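RNA was sequenced from 15 libraries of mouse SFEBq tissue, assigned to groups by their labels. The authors mapped reads to mm10 with TopHat2 2.0.8b, estimated fragments per gene of the UCSC annotation with Cuffdiff (Cufflinks 2.1.1) and normalized them with edgeR 3.2.4. The deposited values are a normalized signal called CPM by the authors, whose columns sum to between 936418 and 1075448. Whole reads were recovered from 100% of 240627 values checked (tolerance 0.01 reads for small counts, growing in proportion to larger ones). For the largest counts this tolerance is too wide for the check to fail.

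limma 3.58.1 (R 4.3.3) was fitted to log2(value + 0.3) with 5 group means and a trend, since the values are not counts, for the 13845 of 23244 entries that reached 1 CPM, relative to their column's sum, in 3 or more libraries. edgeR 4.0.16 on recovered reads was an alternative, as were other pseudocounts (0.05 and 1 CPM), filters (none, 10 CPM), normalizations, RNA integrity (RIN) and replicate number as covariates, and single libraries left out. The fit was also run on simulated counts in which few genes changed. Far more entries were called in these data, so that run does not give the error rate here. Protein sequences and the promoters of Vax2, Tbx2, Tbx3 and Tbx5 were not analysed here. P-values measure the spread between replicates of 1 cell line, and counting limits cover counting error only.

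The 8 genes and the lists were chosen with earlier results of these data known. All 8 are named. Of each list, genes with the highest values or largest differences are named, and for each tested gene the 3 entries nearest by root mean square distance (at least 5 CPM in the highest group). Other list genes given by value, Vax2os and the 2 overlapping genes were added after their values were seen. Figures used matplotlib 3.10.9. Some genes of the lists are not reported here.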

Additional observations from a re-analysis of the deposited data

Results flagged for a closer look

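The change from Day 12 to Day 15 differed between +Fgf and +Wnt tissue for 5 of the 7 genes tested, by the interaction in limma (47.9% of all entries differed). The log2 change in +Fgf tissue minus that in +Wnt tissue was 2.43 for Vax2, 2.95 for Pax2, 0.66 for Tbx2, 1.79 for Tbx3 and 1.32 for Nr2f1. The value of Tbx2 was not called in 7 of 21 alternatives. Tbx3 rose in +Fgf and fell in +Wnt tissue, and the other 4 fell in +Wnt tissue. Markers of mesenchyme, telencephalon, midbrain-hindbrain and retinal ganglion cells also differed between these groups, and their part in the 5 values was not tested.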

How the results depend on the processing

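Of 987 alternatives to 63 differences of the 7 tested genes, 916 kept their direction and their side of the threshold, 35 lost a call, 15 gained one and 21 changed sign. Of 45 called differences, 37 kept their call in all alternatives run. The count of genes called between Day 12 +Fgf and Day 10 was 2, 4 with the count test of edgeR and between 2 and 5 with single libraries left out (5 without Day 12 +Fgf replicate 2). Between Day 15 +Fgf and Day 12 +Fgf it was 2, 1 after quantile normalization, 0 with RIN and between 1 and 4 with single libraries left out (4 without Day 12 +Fgf replicate 2, 1 without Day 12 +Fgf replicate 3 or Day 15 +Fgf replicate 1 or 2). The limma calls over all entries between these groups went from 7899 to 3591 with RIN and those of the interaction from 6636 to 3842. RIN was on average lowest in Day 15 +Fgf tissue, so its part and that of the group are not fully separable.

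With RIN, these uncalled differences changed sign. Against Day 10, Day 12 +Fgf was -0.26 for Vax2, 0.13 for Tbx2 and 0.03 for Tbx5, Day 12 +Wnt was -0.10 for Nr2f1, and Day 15 +Fgf was 0.02 for Vax2 and -0.09 for Tbx2. From Day 12 to Day 15 in +Fgf they were 0.29 for Vax2, 0.48 for Pax2, -0.23 for Tbx2 and, for the called difference of Nr2f1, 0.01. The interaction of Tbx5 was -0.46. With single libraries left out, the ranges that crossed 0 were, against Day 10, -0.10 to 0.53 for Vax2 and -0.23 to 0.05 for Tbx2 in Day 12 +Fgf, -0.07 to 0.10 for Nr2f1 in Day 12 +Wnt and -0.05 to 0.17 for Tbx2 in Day 15 +Fgf. From Day 12 to Day 15 in +Fgf they were -0.60 to 0.06 for Pax2 and -0.92 to 0.17 for Tbx5. The cause of these changes was not tested.

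The replicate number as a block left all 63 differences on their side of the threshold, with counts of 2, 6, 2, 6, 7, 7, 3, 7 and 5 genes called in the 9 comparisons. Whether same-numbered samples share a culture run was not stated, and deviations within groups this small cannot decide it. Deviations of 24 same-numbered pairs correlated between -0.253 and 0.245, and 5 were over 0.1. Of 24, 9 correlated best with their own number. Depth limits Vax1 (0 to 19 reads) and, in Day 15 +Wnt tissue, Pax2 (5 to 13 reads), Tbx3 (12 to 29) and Tbx5 (10 to 20).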
